A study of Arabidopsis thaliana with 14 samples.

Results

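Before any auxin was given, root segments of the Arabidopsis thaliana mutant slr-1 were compared with the same segments of the wild type Col-0. The comparison used 4 of the 14 arrays of the series, chosen by the sample titles: 2 arrays of slr-1 0 h and 2 arrays of Col-0 0 h. It covered 14882 of 22746 probe sets that are not array controls, each with both arrays of at least 1 of the 7 groups above a signal of 218.1. The dimmer array of the brightest group read 218.2 for the probe set just inside that limit and 218.1 for the one just outside it. Either group at 0 h passed the limit for 13711 of them.

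slr-1 is a dominant mutant of IAA14, an Aux/IAA protein. Aux/IAA proteins hold auxin response factors (ARFs) inactive, and auxin normally has them degraded. In slr-1 the IAA14 protein is stable, so the response factors that start lateral roots stay repressed. The mutant is known for roots without lateral roots and with few root hairs. The comparison asks which transcripts differed between the genotypes before auxin was added.

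All seedlings germinated on medium with 10 µM NPA, an inhibitor of polar auxin transport, and were 3 days old at harvest or transfer. The slr-1 0 h and Col-0 0 h groups received no NAA, a synthetic auxin. The other groups are slr-1 and Col-0 exposed to 10 µM NAA for 2 h or for 6 h, and Col-0 given a 6 h mock treatment, each with 2 arrays. A sample pooled the roots of about 1500 seedlings, cut to the stretch between the meristem and the hypocotyl, and the series' design text calls the repeats biological. A single allele represents the mutant, and the NPA treatment was shared by every group. Nothing in the labels says that tissue of the 2 genotypes was grown in parallel. The mutated gene IAA14 has no probe set of its own in the annotation table used here, so its level was not analysed here.

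Array slr-1 0 h replicate 2 stood apart from the other 13 arrays. Its ratio of 3' to 5' signal was 1.162 for GAPDH and 10.577 for actin, against ranges of 0.546 to 0.742 and 3.229 to 5.516 on the other arrays, while its ubiquitin ratio of 2.97 lay within the range of the others. Median signals at 0 h were 389 and 364 on the slr-1 arrays and 376.2 and 374.3 on the Col-0 arrays. Results at 0 h are therefore given with and without that array where it changed a call of a gene described or the count of a list.

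The tissue label was checked against marker genes, of which the annotation names few. The pericycle markers AT4G30450 and LHW (2 of 8 listed) summed to 15414 and 15248 in slr-1, against 17507 and 19607 in Col-0. Most of that sum was AT4G30450, since LHW read 1268.8 and 1067.6 in slr-1 and 1095.7 and 1135 in Col-0. The sum was 898 and 607 in Col-0 after 6 h of NAA, against 11814 and 14371 after mock, so it does not follow tissue alone. The cortex markers (3 of 3 listed) summed to 1103 and 898 in slr-1 and 948 and 776 in Col-0. The single meristem marker named, the centromeric histone HTR12, read 153.3 and 68 in slr-1 and 171.9 and 84.6 in Col-0, below 218.1 on all 4 arrays. The defining markers listed for endodermis, xylem and phloem have no named probe set in the table and were not analysed here. In wider gene lists the endodermis gene JKD differed by 0.17 (adjusted p = 0.707), and OPS of phloem and IRX15 of xylem were too dim to be tested. Signals come from whole segments, so fewer cells of a type and less RNA per cell cannot be told apart.

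Signals were compared as log2 of the signal plus 18.9 with limma, all 14 arrays sharing 1 estimate of the spread, and differences are slr-1 minus Col-0. At an adjusted p under 0.05, 1994 probe sets differed (13.4% of those tested), 987 of them higher (6.63%) and 1007 lower (6.77%) in slr-1. In each of the 1994 both slr-1 arrays lay on the same side of both Col-0 arrays, which held for 28.1% of all tested probe sets in the higher direction and for 25.7% in the lower. Of these differences, 402 were rises and 476 falls of at least 2-fold, and 89 were rises and 72 falls of at least 4-fold. The median difference over all tested probe sets was 0.01.

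One gene was named for 965 of the called probe sets, 502 higher and 463 lower. Without slr-1 0 h replicate 2, 865 of the 1994 stayed called in the same direction (43.4%). No sign could change, because the arrays of the genotypes did not overlap in any of the 1994. In that smaller fit 2.84% of all probe sets were higher and 3.66% lower. Leaving out slr-1 0 h replicate 1 instead left 1346, and leaving out Col-0 replicate 1 or 2 at 0 h left 994 or 791. The call of 543 probe sets, 271 higher and 272 lower, held whichever single array at 0 h was left out. With 2 arrays a side the smallest p of an exact permutation test is 0.333, so every adjusted p here is limma's.

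**Figure D1:**
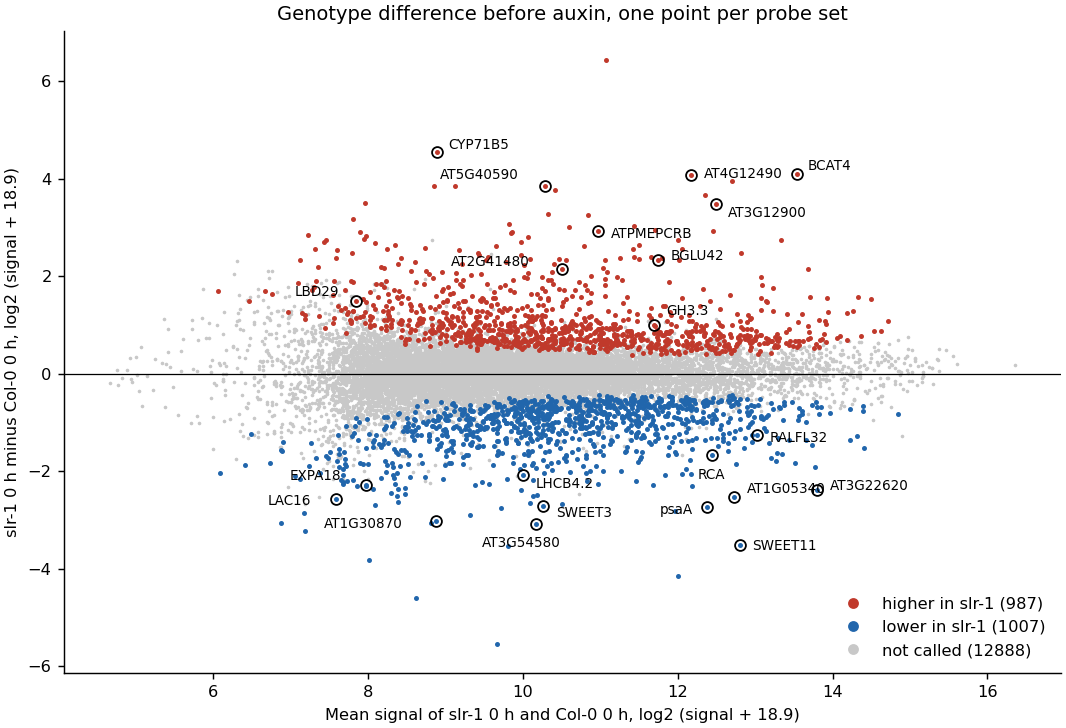
Difference between slr-1 0 h and Col-0 0 h (vertical axis, log2 of signal plus 18.9) against the mean signal of the 4 arrays (horizontal axis, same scale), 1 point per tested probe set. Red points (987) were higher and blue points (1007) lower in slr-1 at an adjusted p under 0.05; circled genes are described in the text, among them SWEET11 at -3.50 and BCAT4 at 4.10.

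Photosynthesis genes of the nucleus were lower in slr-1 before auxin. Of 11 tested genes for photosystem subunits, antenna proteins, chlorophyll synthesis and carbon fixation, 10 fell, 0 rose, and the median difference was -1.16, against 0.01 for all probe sets. PORB, a protochlorophyllide reductase, was the member that missed the threshold (-0.53, adjusted p = 0.311). All 11 had both slr-1 arrays below both Col-0 arrays, against 25.7% of all tested probe sets. Without slr-1 0 h replicate 2 the count was 8 of 11, and without slr-1 0 h replicate 1 it was 7.

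RCA, the Rubisco activase that keeps the carbon-fixing enzyme working, read 2773.6 and 2503.2 in slr-1, against 8204.1 and 8613.6 in Col-0. The groups were far apart, at -1.67 (SE 0.19, adjusted p = 0.000161). LHCB4.2, an antenna protein of photosystem II, read 293.9 and 466 in slr-1, against 1564.3 and 1693.6 in Col-0 (-2.08, SE 0.34, adjusted p = 0.00173). Its close relative LHCB4.3 differed by -1.16 (adjusted p = 0.0183). That call was lost when slr-1 replicate 1 (0.0752) or either Col-0 array at 0 h (0.0501 and 0.123) was left out, while the LHCB4.2 call held.

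PSAE-1, a stromal subunit of photosystem I, read 548.3 and 650.3 in slr-1, against 1861.1 and 1875.3 in Col-0 (-1.61, SE 0.21, adjusted p = 0.000345). PSAN, a lumenal subunit of the same photosystem, read 684.7 and 693.7 in slr-1, against 1413.3 and 1180 in Col-0. Its difference of -0.89 (adjusted p = 0.0115) was no longer called without slr-1 0 h replicate 2 (adjusted p = 0.0503) or Col-0 0 h replicate 1 (0.0898). PSBW, a small subunit of photosystem II, read 1327.9 and 1408 in slr-1, against 3211 and 3461 in Col-0 (-1.27, SE 0.19, adjusted p = 0.00097). In each of these 3 genes both slr-1 arrays lay below both Col-0 arrays by more than the gap between replicates.

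A wider list, assembled after the data were seen from gene names that mention chloroplasts, photosystems or thylakoids, gave 18 of 26 lower and 1 higher (median -0.91). Without slr-1 0 h replicate 2 the numbers were 12 and 0. The shares of all probe sets were 6.63% higher and 6.77% lower with all arrays. The wider list includes every tested nuclear photosynthesis gene above except CHLM, so its counts are not a separate observation. PSB27, which helps assemble and repair photosystem II, read 512.1 and 768.5 in slr-1, against 1911.1 and 1934.9 in Col-0 (-1.59, SE 0.20, adjusted p = 0.000354). TROL, the thylakoid protein that anchors ferredoxin reductase, read 675.1 and 424.4 in slr-1, against 1657.4 and 1614.6 in Col-0 (-1.58, adjusted p = 0.000352). The member that rose was TAAC, a thylakoid ATP and ADP carrier, with 1705.8 and 1918.7 in slr-1, against 917.8 and 1263 in Col-0 (0.74, adjusted p = 0.00895; 0.063 without slr-1 0 h replicate 2 and 0.0889 without Col-0 replicate 1).

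Green tissue of the hypocotyl or cotyledon was among the tissues that a segment could hold besides root. Of 12 markers listed for it, RCA, PSAN and LHCB4.2 have a probe set named, and all 3 were lower in slr-1. These 3 also belong to the photosynthesis genes above, so their fall is not a separate observation, and the labels place the segment between the meristem and the hypocotyl. Their summed signal was 3752 and 3663 in slr-1, against 11182 and 11487 in Col-0. The part of such tissue in the photosynthesis result was not tested.

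Transcripts of the plastid genome, whose proteins work beside these nuclear ones, followed them on 1 of the slr-1 arrays. Of 61 tested, 11 were lower and 0 higher, with a median of -0.50, beside 6.77% of all probe sets lower. Without slr-1 0 h replicate 2 only 1 was lower and the median was -0.11, and without slr-1 0 h replicate 1 there were 21 lower and a median of -0.91. psaA, a core protein of photosystem I, read 4994.5 and 271.7 in slr-1, against 8434.7 and 7584.9 in Col-0 (-2.73, SE 0.83, adjusted p = 0.0458). That call ended without slr-1 0 h replicate 2 (0.284), without either Col-0 array at 0 h (0.154 and 0.15), and when any 1 of the 10 arrays of the other groups was left out. psbD, a reaction centre protein of photosystem II, read 947.1 and 122.6 in slr-1, against 1843.6 and 1490.8 in Col-0 (-2.18, adjusted p = 0.0228; 0.0665, 0.109 and 0.0832 without slr-1 replicate 2, Col-0 replicate 1 and Col-0 replicate 2).

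Of the 61 plastid transcripts 47 were lower on slr-1 0 h replicate 2 than on replicate 1 (median -0.56), a gap wider than that between replicate 1 and the Col-0 mean. The 8 mitochondrial transcripts were all lower on replicate 2 than on replicate 1 (median -0.49), and 0 of them were called between genotypes. The 11 nuclear photosynthesis genes had medians of -1.16 and -1.10 on the slr-1 arrays, and 3 of them were lower on replicate 2. The Col-0 arrays differed too, with plastid medians of 0.13 on replicate 1 and -0.13 on replicate 2 against the Col-0 mean. Their mitochondrial medians were 0.29 and -0.29. On Col-0 replicate 2, 47 of 61 plastid and 6 of 8 mitochondrial transcripts lay below that mean. These Col-0 medians mirror each other, since each array is set against the mean of both. Against the same mean, the slr-1 medians were -0.11 and -0.91 for plastid transcripts and 0.12 and -0.45 for mitochondrial ones. The plastid gap was thus wider in slr-1 than in Col-0, and the mitochondrial gap was of similar size in both. The part of the raised 3' to 5' ratios of slr-1 0 h replicate 2 in the organelle result was not tested.

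**Figure D2:**
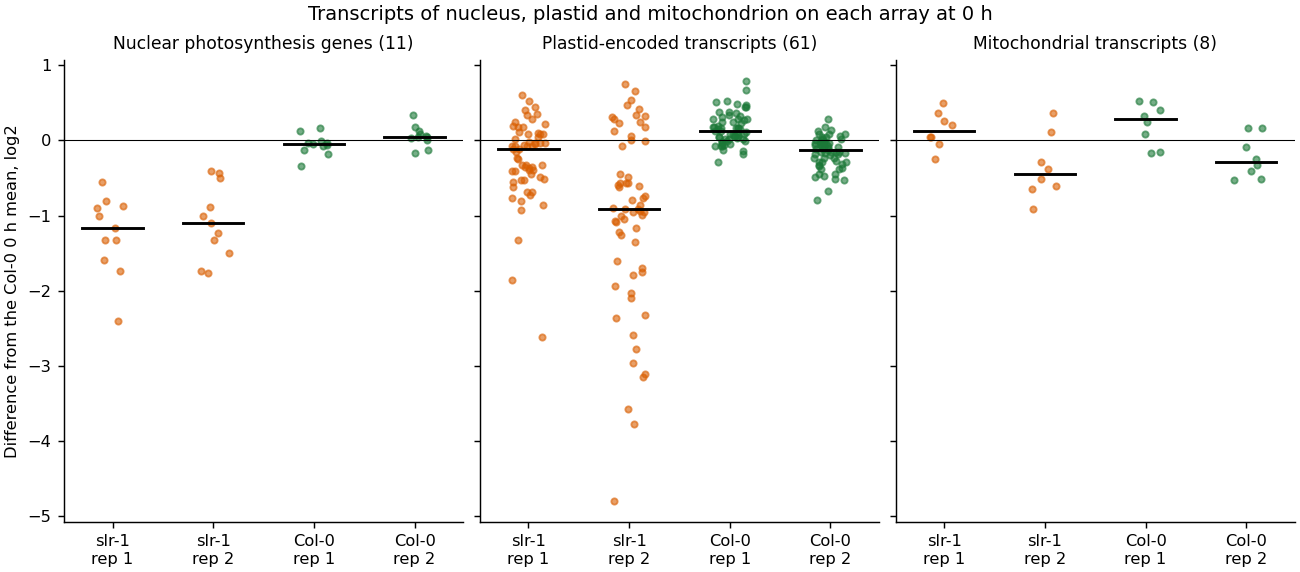
Log2 difference of each gene from its Col-0 0 h mean (vertical axis) on the 2 slr-1 and the 2 Col-0 arrays at 0 h, for nuclear photosynthesis genes (11), plastid-encoded transcripts (61) and mitochondrial transcripts (8), with black bars at the medians. The nuclear genes sit near -1.16 and -1.10 on both slr-1 arrays, whereas plastid transcripts have medians of -0.11 on replicate 1 and -0.91 on replicate 2.

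SWEET proteins carry sugars across membranes, and 3 of 8 tested members were lower in slr-1 while 0 were higher (median -0.20). The same number was lower when either slr-1 array was left out. Among all probe sets 6.77% were lower, and 3.66% without slr-1 0 h replicate 2. SWEET11, a sucrose exporter known from phloem loading, read 1193.3 and 1080.6 in slr-1, against 12859.5 and 13295.9 in Col-0. The replicates lay within a narrow range in both genotypes, and the signal was 11.3-fold lower in slr-1 (-3.50, SE 0.26, adjusted p = 1.72e-05). It was the largest fall among probe sets with 1 named gene.

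SWEET3 read 302.9 and 308.2 in slr-1, against 2404 and 1830.2 in Col-0 (-2.71, SE 0.43, adjusted p = 0.00148). SWEET2, a vacuolar sugar carrier of roots, read 2043 and 1259.4 in slr-1, against 3684 and 4180.8 in Col-0 (-1.28, SE 0.21, adjusted p = 0.0018). All 3 calls held whichever single array at 0 h was left out, which is what holding without any single array means hereafter. The other 5 members, SWEET17, SWEET16, SWEET13, SWEET1 and SWEET14, ran from -0.24 to 0.58 and none passed the threshold.

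Of 3 tested lateral root regulators that auxin induces, 1 was higher and 0 were lower in slr-1 before auxin (median 0.88). The share of all probe sets that were higher was 6.63%. LBD29, a LOB-domain transcription factor downstream of ARF7 and ARF19, read 317.3 and 317.8 in slr-1, against 112.2 and 91.2 in Col-0. Both slr-1 arrays were above both Col-0 arrays, at 1.49 (SE 0.40, adjusted p = 0.0267). Its adjusted p lay between 0.069 and 0.142 whichever of the 4 arrays at 0 h was left out. LBD16, its relative in the same pathway, read 975.9 and 710.4 in slr-1 and 588.9 and 632.4 in Col-0 (0.44, adjusted p = 0.116).

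PUCHI, an AP2/ERF factor of young lateral root primordia, read 178.7 and 164.5 in slr-1 and 106.9 and 66.4 in Col-0 (0.88, adjusted p = 0.0605). All 4 signals lie below 218.1, and PUCHI was tested through the groups given NAA. A call appeared with quantile normalization (adjusted p = 0.0476) and when either slr-1 array at 2 h of NAA was left out (0.0325 and 0.0343). The order was the opposite after auxin, when all 3 were lower in slr-1 at both times. At 6 h LBD29 read 2323.2 and 2192.6 in slr-1, against 13989.8 and 11781 in Col-0 (-2.50, adjusted p = 0.000356). PUCHI read 297.4 and 251.4 in slr-1 and 11380.8 and 9395.6 in Col-0 at that time (-5.15, adjusted p = 8.57e-08).

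Of 4 Aux/IAA genes tested, IAA29 alone was called, beside 13.4% of all probe sets called in either direction. It read 271.7 and 263.3 in slr-1, against 73.5 and 193.3 in Col-0 (1.03, SE 0.28, adjusted p = 0.0264). Leaving out either slr-1 array at 0 h (adjusted p = 0.0696 and 0.0924) or Col-0 replicate 1 (0.183) ended the call. IAA18, IAA30 and IAA20 differed by -0.19, -0.87 and -0.11 and did not pass, IAA20 with signals under 19 on all 4 arrays.

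Of 4 GH3 genes, whose enzymes join auxin to amino acids, GH3.3 alone was called, with 4827.3 and 3874.9 in slr-1, against 1869.6 and 2526.5 in Col-0. The difference was 0.99 (SE 0.28, adjusted p = 0.0318). Leaving out any of the 4 arrays at 0 h ended the call, with adjusted p of 0.128 and 0.0674 without slr-1 replicates 1 and 2 and 0.194 and 0.0601 without Col-0 replicates 1 and 2. WES1 and GH3.17 differed by -0.77 and -0.44 and GH3.1 by 0.32, none of them called, beside 13.4% of all probe sets called. The levels at 0 h are small beside those after auxin: GH3.3 read 38029.6 and 41712.6 in slr-1, against 39916.7 and 37074.5 in Col-0, after 2 h of NAA.

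Root hair expansins gave low signals in slr-1. EXPA18, an expansin of root hair cells, read 141.8 and 22.4 in slr-1, against 432.9 and 331.1 in Col-0 (-2.29, SE 0.65, adjusted p = 0.0347). Leaving out slr-1 replicate 2 (adjusted p = 0.279) or either Col-0 array (0.15 and 0.108) ended the call. EXPA7, the other root hair expansin, read 77.7 and 40.2 in slr-1 and 284.7 and 79.6 in Col-0 (-1.19, adjusted p = 0.274). Summed over the 3 root hair markers with a probe set, of 15 listed, the signal was 228 and 67 in slr-1 and 725 and 419 in Col-0. The third marker, XTH26, read only 8.7 and 4.6 in slr-1 and 7.5 and 8.0 in Col-0. The sum is thus nearly that of EXPA18 and EXPA7 and not a separate observation.

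EXPA18 was also low in slr-1 on the later arrays. It read 83.7 and 23.4 in slr-1, against 460.3 and 136.7 in Col-0 at 2 h of NAA (-2.05, adjusted p = 0.0862). At 6 h it read 128.4 and 76.7 in slr-1, against 509.9 and 256.6 in Col-0 (-1.69, adjusted p = 0.0609). Neither difference passed the threshold. FER, the receptor kinase needed for root hair growth, was the third tested root hair gene and differed by -0.09 (adjusted p = 0.758).

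HRGP1, a hydroxyproline-rich glycoprotein of the cell wall, was lower together with a neighbouring locus. It read 1613.3 and 720.9 in slr-1, against 5700.6 and 4997 in Col-0 (-2.29, SE 0.40, adjusted p = 0.00265). Its neighbour AT3G54580 read 384 and 124.4 in slr-1, against 2227.1 and 1802.8 in Col-0 (-3.07, SE 0.48, adjusted p = 0.00136). HRGP1 is read by a probe set whose probes can bind related transcripts, so the signals of the pair may not be separate. The difference of AT3G54580 was -3.07 at 2 h and -3.10 at 6 h of NAA, close to that at 0 h.

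Of 24 tested expansins, xyloglucan enzymes and family 9 glucanases, which act on the wall, 4 rose and 2 fell (median -0.06), against 6.63% higher and 6.77% lower among all probe sets, and without slr-1 0 h replicate 2 the counts were 3 and 1. GH9C2, an endoglucanase, read 2437.1 and 2333.1 in slr-1, against 773.5 and 1140.3 in Col-0 (1.33, SE 0.24, adjusted p = 0.00327). XTH20, which cuts and rejoins xyloglucan, read 1213.3 and 1127.7 in slr-1, against 357.3 and 631.4 in Col-0 (1.26, SE 0.24, adjusted p = 0.00477). Both calls held without any single array.

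EXPA4, an expansin, read 4111.6 and 2433.1 in slr-1, against 1478.3 and 1241 in Col-0 (1.21, adjusted p = 0.0108; 0.0734 without slr-1 0 h replicate 1 and 0.089 without Col-0 replicate 2). EXPB3, a beta-expansin, rose by 1.03 (adjusted p = 0.0277; 0.0564 to 0.179 without slr-1 replicate 1 or 2 or Col-0 replicate 1). EXGT-A3, a xyloglucan enzyme, fell by 0.54 (adjusted p = 0.0163; 0.0532 to 0.0995 without slr-1 replicate 1 or either Col-0 array). The remaining fall was that of EXPA18.

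Of 2 pectin enzyme genes tested, 1 rose and 0 fell, beside 6.63% of all probe sets higher. ATPMEPCRB (PME41), a pectin methylesterase, read 3535.9 and 3520.3 in slr-1, against 373.8 and 533.6 in Col-0. The 2 slr-1 arrays gave nearly the same signal, 7.61-fold above Col-0 (2.93, SE 0.24, adjusted p = 2.28e-05). On the later arrays the difference was 2.39 at 2 h and 2.87 at 6 h of NAA, and Col-0 mock read 476.3 and 405.7. PMEPCRF, the other pectin methylesterase tested, went the other way without passing (-0.73, adjusted p = 0.0586).

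Of 16 trichome birefringence-like genes, a family of wall polysaccharide acetyltransferases, 2 rose and 0 fell, a share near the 13.4% of all probe sets that were called in either direction. TBL40 (AT2G31110) read 1607.5 and 1763.2 in slr-1, against 652.9 and 588 in Col-0 (1.41, SE 0.19, adjusted p = 0.000409). TBL36 read 3026.7 and 2957.9 in slr-1, against 714.5 and 750.4 in Col-0 (2.00, SE 0.44, adjusted p = 0.00968; 0.0514 and 0.0537 without Col-0 0 h replicates 1 and 2). The list's median was 0.07.

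Of 5 tested xylem and lignin genes 2 fell and 0 rose (median -0.20), beside 6.77% of all probe sets lower. CCR2, a cinnamoyl-CoA reductase of the lignin pathway, read 351.2 and 494 in slr-1, against 1273.9 and 1547 in Col-0 (-1.71, SE 0.22, adjusted p = 0.000338). LAC16, a laccase, read 26.5 and 47.4 in slr-1, against 259 and 363.4 in Col-0 (-2.57, SE 0.52, adjusted p = 0.00618). The LAC16 call was lost without Col-0 0 h replicate 2 (adjusted p = 0.0579), and its slr-1 signals lie near the 18.9 added to every value. HCT, CCOAMT and LHW, a vascular regulator also counted above as a pericycle marker, differed by -0.20, -0.15 and 0.06 and did not pass.

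Peroxidases use hydrogen peroxide to oxidise wall phenolics, and 2 of the 4 that RefSeq names and that were tested rose. Without slr-1 0 h replicate 2 the count was 1. Among all probe sets 6.63% were higher, and 2.84% without that array. Peroxidase genes known to the table only by locus number are not counted, so this is no count of the family and gives no direction for it. The list was assembled after the data were seen. PRX25 (AT2G41480) read 2480.9 and 2235.8 in slr-1, against 472.9 and 574.2 in Col-0 (2.14, SE 0.22, adjusted p = 8.56e-05). Prx37 read 377.7 and 499.2 in slr-1, against 142.3 and 90.9 in Col-0 (1.77, SE 0.42, adjusted p = 0.0144). The call of Prx37 was lost without slr-1 0 h replicate 2 (adjusted p = 0.0951) or Col-0 replicate 2 (0.111). The abundant PRXR1, at 43369.6 and 39481.1 in slr-1 and 39314.7 and 36668.4 in Col-0, differed by 0.12 (adjusted p = 0.733).

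**Figure D3:**
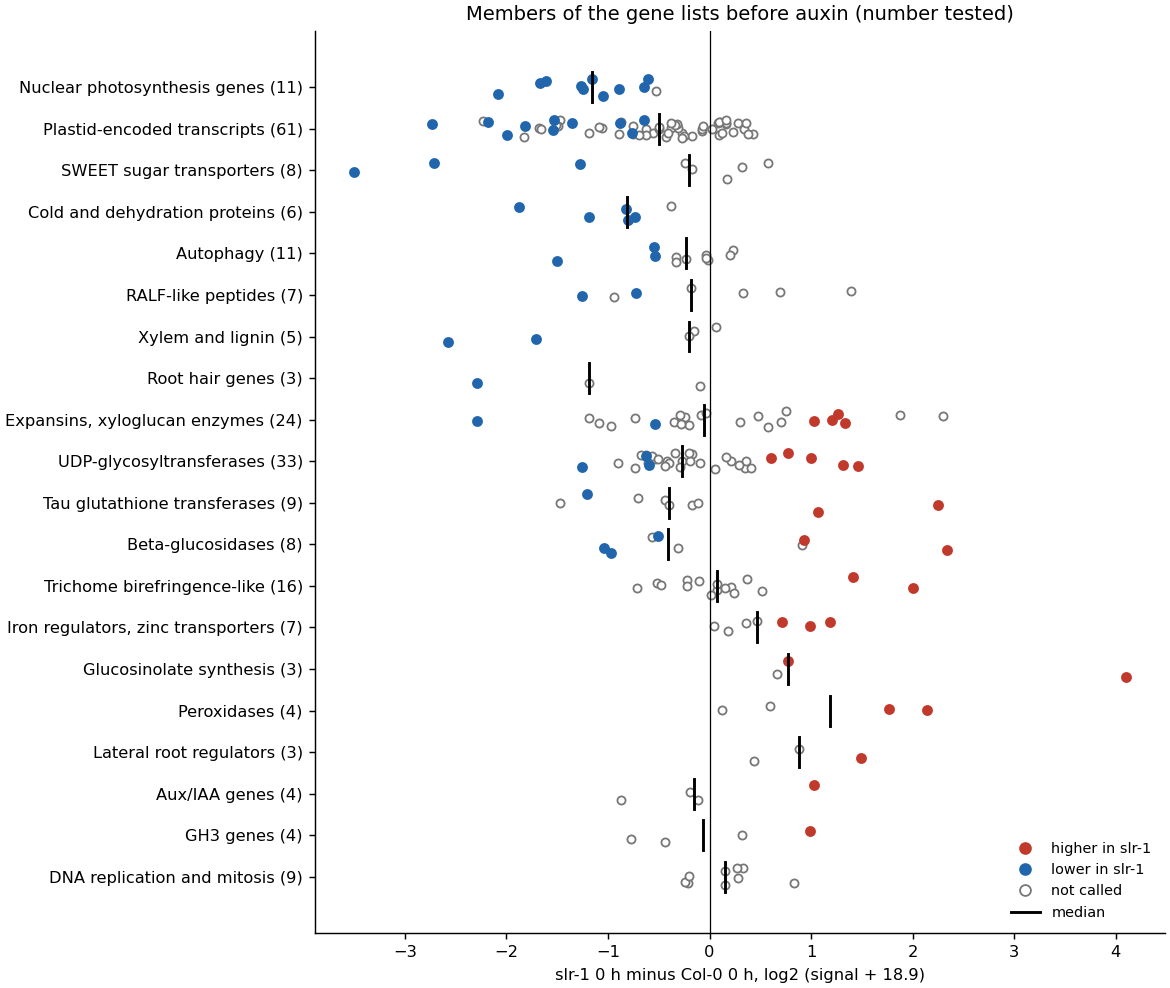
Log2 difference of each tested member, slr-1 0 h minus Col-0 0 h (horizontal axis), for 20 gene lists (rows, number tested in brackets), with filled points for members called higher (red) or lower (blue) and black bars at the medians. Nuclear photosynthesis genes have 10 of 11 members lower around a median of -1.16, SWEET11 is the leftmost point of the figure at -3.50, and BCAT4 is the rightmost at 4.10.

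Glucosinolates are sulfur-rich defence compounds, and of 3 tested genes for their synthesis 2 rose and 0 fell, with 1 higher without slr-1 0 h replicate 2. Among all probe sets 6.63% were higher, and 2.84% without that array. BCAT4 starts the chain elongation of methionine for aliphatic glucosinolates, and it read 22826 and 21946.7 in slr-1, against 1943 and 847.6 in Col-0. The difference of 4.10 (SE 0.51, adjusted p = 0.000308) was a 17.2-fold rise. Col-0 mock arrays, harvested 6 h later, read 10808.9 and 2723.7, between the genotypes and far apart from each other. BCAT4 stayed higher in slr-1 at 2 h (2.51, adjusted p = 0.00978) and at 6 h of NAA (5.02, adjusted p = 8.17e-06).

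UGT74B1, which glucosylates the glucosinolate core, read 2531.1 and 3307.6 in slr-1, against 1687.1 and 1697.8 in Col-0 (0.77, SE 0.23, adjusted p = 0.0436). The call ended without slr-1 replicate 2 (0.252) or either Col-0 array at 0 h (0.14 and 0.153), and also when any 1 of 6 arrays of the NAA groups was left out. AOP1, the third glucosinolate gene tested, differed by 0.66 (adjusted p = 0.14).

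Other enzymes of specialised metabolism moved one by one. CYP71B5, a cytochrome P450, was 1 of 9 tested P450 genes to pass, a share near the 13.4% of all probe sets. It read 751 and 1027.3 in slr-1, against 25.1 and 14.7 in Col-0 (4.54, SE 0.76, adjusted p = 0.00201). Its Col-0 signals are near the 18.9 added to every value, and with a value of 1 added instead the difference was 5.44. BGLU42, a beta-glucosidase that acts on phenolics secreted by iron-starved roots, read 5005.3 and 6359.9 in slr-1, against 859.5 and 1412.2 in Col-0 (2.34, SE 0.32, adjusted p = 0.000496). Of 8 beta-glucosidases 2 rose and 3 fell, and without slr-1 0 h replicate 2 the counts were 1 and 1. Among all probe sets 6.63% were higher and 6.77% lower, and 2.84% and 3.66% without that array.

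Of 33 UDP-glycosyltransferases 5 rose and 3 fell (median -0.27), and without slr-1 0 h replicate 2 the counts were 2 and 2. The shares of all probe sets were 6.63% higher and 6.77% lower, and 2.84% and 3.66% without that array. UGT72E1, which glucosylates lignin precursors, read 13745.9 and 12949.9 in slr-1, against 4797.1 and 4872.7 in Col-0 (1.46, SE 0.22, adjusted p = 0.00109). UGT76D1 read 142.2 and 142.8 in slr-1, against 323.8 and 414.7 in Col-0 (-1.26, adjusted p = 0.00799; 0.0797 without Col-0 0 h replicate 2). Of 9 tau glutathione transferases, detoxifying enzymes, 2 rose and 1 fell.

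GSTU27 read 4995.8 and 5067.7 in slr-1, against 2278.1 and 2492.6 in Col-0 (1.07, SE 0.17, adjusted p = 0.00163), and GSTU20 rose by 2.25 (adjusted p = 0.00613; 0.0739 without Col-0 0 h replicate 2). GSTU16 read 566.4 and 382 in slr-1, against 1185.9 and 1030 in Col-0 (-1.21, SE 0.22, adjusted p = 0.00282). The calls of GSTU27 and GSTU16, in opposite directions, held without any single array.

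Among iron and zinc genes bHLH115, BHLH101 and ZIP9 were called higher, and only the bHLH115 call held without any single array. Of 7 genes for bHLH factors of iron supply, an iron reductase and ZIP zinc transporters, a list assembled after the data were seen, 3 rose and 0 fell (median 0.47; 2 rose when either slr-1 array was left out). Among all probe sets 6.63% were higher, and 2.84% without slr-1 0 h replicate 2. bHLH115, a factor at the top of the iron deficiency response, read 9771.2 and 10296.8 in slr-1, against 5813.9 and 6441.5 in Col-0 (0.71, SE 0.13, adjusted p = 0.00429). BHLH101, a factor that iron deficiency induces, read 2319.5 and 2875 in slr-1, against 958 and 1312.7 in Col-0 (1.19, adjusted p = 0.0115; 0.0854 without slr-1 0 h replicate 2 and 0.0929 without Col-0 replicate 1). The iron reductase FRO1 differed by 0.04 (adjusted p = 0.903).

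ZIP9, a zinc transporter, read 675.8 and 504.9 in slr-1, against 286.1 and 283.1 in Col-0 (0.99, adjusted p = 0.0237; 0.108 without slr-1 0 h replicate 1, and 0.0861 and 0.105 without Col-0 replicates 1 and 2). APS3, an ATP sulfurylase of sulfate assimilation, read 467 and 686.8 in slr-1, against 210.7 and 220.4 in Col-0 (1.32, SE 0.25, adjusted p = 0.00409). The APS3 call held without any single array, whereas its family member APS4 differed by -0.51 (adjusted p = 0.145).

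Several genes for cold and dehydration proteins were lower in slr-1. In an earlier list, of abscisic acid and dehydration genes, 3 of 5 tested were lower and 0 higher (median -0.73). Fewer were lower without slr-1 0 h replicate 2. That list shares LEA4-5, COR47, LTI30 and RD2 with the list given next. Of 6 tested genes known for induction by cold or drought, among 11 in a list assembled after the data were seen, 5 fell and 0 rose (median -0.81). The calls were fragile: 1 remained called lower without slr-1 0 h replicate 2 and 2 without slr-1 0 h replicate 1. Among all probe sets 6.77% were lower, and 3.66% without replicate 2. HIS1-3, a linker histone induced by drought, read 1607 and 1853.8 in slr-1, against 4215 and 3735.2 in Col-0 (-1.19, SE 0.23, adjusted p = 0.00531), and held without any single array.

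The dehydrins COR47 and LTI30 fell by 0.82 (adjusted p = 0.041) and by 0.73 (adjusted p = 0.0339). COR47 read 20395.8 and 22365.4 in slr-1, against 40204.2 and 35384.7 in Col-0. Leaving out any array at 0 h ended both calls, with adjusted p from 0.115 to 0.182 for COR47 and from 0.0672 to 0.208 for LTI30, and some arrays of the NAA groups did so too. The lipocalin TIL fell by 0.80 (adjusted p = 0.0297), and 3 of the 4 arrays at 0 h ended its call, slr-1 replicates 1 and 2 (0.0642 and 0.142) and Col-0 replicate 2 (0.219). LEA4-5 fell by 1.88 (adjusted p = 0.0175; 0.139 without slr-1 0 h replicate 2 and 0.149 without Col-0 replicate 1), while RD2 differed by -0.38 and did not pass (adjusted p = 0.305).

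Of 11 autophagy genes, also listed after the data were seen, 3 fell and 0 rose (median -0.23; 1 fell without slr-1 0 h replicate 2). Among all probe sets 6.77% were lower, and 3.66% without that array. ATG8H, a ubiquitin-like protein of the autophagosome membrane, read 1070.3 and 1657.9 in slr-1, against 3787.9 and 3844.4 in Col-0 (-1.50, SE 0.20, adjusted p = 0.000367). APG8A, of the same family, fell by 0.55 (adjusted p = 0.0333), a call that ended when any 1 of the 4 arrays at 0 h was left out (adjusted p 0.0824 to 0.161). ATG8F, the family's brightest member with 15559.8 and 15235 in slr-1 and 15495.1 and 15969.3 in Col-0, differed by -0.03 (adjusted p = 0.901). Within this family ATG8H was apart from its relatives, which ran from -0.55 to 0.23.

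Signalling peptides and receptors held 3 calls. RALFL32, a RALF peptide gene, read 4949.4 and 4761.7 in slr-1, against 11169.3 and 12200.7 in Col-0 (-1.26, SE 0.14, adjusted p = 0.00014). RALFL22 read 832.9 and 901.6 in slr-1, against 1504.5 and 1378.5 in Col-0 (-0.72, SE 0.16, adjusted p = 0.0107; 0.0681 without Col-0 0 h replicate 1). Of 7 RALF genes tested these 2 fell and 0 rose (median -0.18), beside 6.77% of all probe sets lower. Without slr-1 0 h replicate 2 there were 3 lower (median -0.34), with RALFL24 at -1.39 (adjusted p = 0.0323), against -0.94 (adjusted p = 0.0731) with all arrays. PSY1R, a receptor kinase of a growth-promoting sulfated peptide, read 2747.1 and 2394.8 in slr-1, against 1364.3 and 1623.5 in Col-0 (0.78, SE 0.15, adjusted p = 0.00501).

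NDB2, an alternative NADH dehydrogenase of mitochondria, read 995.1 and 1054.4 in slr-1, against 2740.2 and 2575.4 in Col-0 (-1.36, SE 0.19, adjusted p = 0.000619). Of 23 heat shock and oxidative stress genes tested, 2 rose and 2 fell, and 3 of these 4 are the tau glutathione transferases above. These counts are near the shares of all probe sets, 6.63% higher and 6.77% lower. DNA replication and mitosis genes had 0 of 9 called in either direction (median 0.15). None of these 9 read above 738.2 on any of the 4 arrays at 0 h. PRL, TSO1 and AUR1 were above the median signal of each array.

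Several further genes, named after their values were seen because their calls held without any single array, belong to none of these groups. LEP, an AP2/ERF transcription factor, read 1825.8 and 1598.9 in slr-1, against 418.5 and 372.1 in Col-0 (2.06, SE 0.21, adjusted p = 9.02e-05). PDF2.1, a plant defensin, read 3599.3 and 3010.3 in slr-1, against 875.7 and 970.1 in Col-0 (1.82, SE 0.19, adjusted p = 9.02e-05). PUB23, a ubiquitin ligase that dampens immune signalling, read 6666.8 and 7753.8 in slr-1, against 2229.1 and 3345.3 in Col-0 (1.39, SE 0.19, adjusted p = 0.000485). In all 3 the lower slr-1 array was well above the higher Col-0 array.

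OSM34, an osmotin-like protein, was among the brighter transcripts, with 37816.3 and 34895.6 in slr-1, against 17854.1 and 16290.1 in Col-0 (1.09, SE 0.22, adjusted p = 0.00539). The transcription factors bZIP44 and bZIP48 moved apart, bZIP44 by 0.99 (adjusted p = 0.00365) and bZIP48 by -2.10 (adjusted p = 0.00615). TPS-CIN, a cineole synthase gene with a near-identical neighbour that can share its probes, read 591.1 and 246.3 in slr-1, against 1268.6 and 1563.8 in Col-0 (-1.83, adjusted p = 0.00364). MMP, a matrix metalloproteinase, fell by 1.23 (adjusted p = 0.00197), and SP1L5, a microtubule-associated protein, fell by 1.16 (adjusted p = 0.00525).

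Many of the largest differences belonged to loci that the annotation gives only by number. AT4G12490 read 9185.4 and 8104.7 in slr-1, against 653.2 and 368.9 in Col-0 (4.08, SE 0.37, adjusted p = 3.07e-05). AT4G12500 read 2819.4 and 2641.4 in slr-1, against 396.7 and 259.9 in Col-0 (3.01, SE 0.34, adjusted p = 0.000183). AT3G12900 read 11355.7 and 9629.9 in slr-1, against 680.2 and 1256.4 in Col-0 (3.47, SE 0.56, adjusted p = 0.00158). In all 3 each slr-1 array was far above each Col-0 array.

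AT3G46270 read 1933.2 and 3118.5 in slr-1, against 99.1 and 264.7 in Col-0 (3.76, SE 0.48, adjusted p = 0.000352). Its neighbour AT3G46280 rose by 1.24 (adjusted p = 0.0262; 0.0959 and 0.065 without slr-1 0 h replicates 1 and 2, and 0.208 without Col-0 replicate 2). AT5G44400, AT4G25090, AT5G40590, AT1G05700 and AT3G61930 rose by 3.85, 3.84, 3.84, 3.25 and 2.92. All 5 calls held without any single array.

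Among the falls, AT1G05340 read 2153.5 and 1820.7 in slr-1, against 10036.5 and 13140.6 in Col-0 (-2.52, SE 0.19, adjusted p = 1.72e-05). AT3G22620 read 5212 and 3969.7 in slr-1, against 25067 and 22687.8 in Col-0 (-2.39, SE 0.28, adjusted p = 0.000231). AT3G02480, AT1G31710 and AT5G28520 fell by 2.65, by 2.50 and by 2.46, and their calls held without any single array. AT4G26010 and AT1G30870 fell by 2.76 and by 3.02, and both calls were lost without slr-1 0 h replicate 2 (adjusted p = 0.0559 and 0.065) or Col-0 replicate 1 (0.104 and 0.0573). AT3G03240 fell by 3.23 (adjusted p = 0.0109; 0.0615 and 0.0743 without Col-0 0 h replicates 1 and 2), with slr-1 signals of 6.5 and 11.8.

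The largest fitted differences were those of probe sets for which the annotation table names no gene, and the 3 given here were near or under the added 18.9 in 1 genotype, so their sizes depend on that value. Probe set 259813_at read 3863.3 and 4601.3 in slr-1, against 43.1 and 20.3 in Col-0 (6.42, SE 0.77, adjusted p = 0.000263), a difference of 2.72 at 2 h (adjusted p = 0.0538) and 0.43 at 6 h of NAA (adjusted p = 0.702). Probe set 251226_at read 11 and 15.9 in slr-1, against 2142.3 and 1006.1 in Col-0 (-5.53, SE 0.69, adjusted p = 0.000313). On the 4 slr-1 arrays after NAA it read between 5 and 13.4, and it entered the tests through Col-0 signals alone. Probe set 246991_at had the same pattern, with 9.2 and 7.2 in slr-1, against 1129 and 357.6 in Col-0 (-4.60, adjusted p = 0.014), though its call did not hold in every fit with 1 array at 0 h left out.

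**Figure D4:**
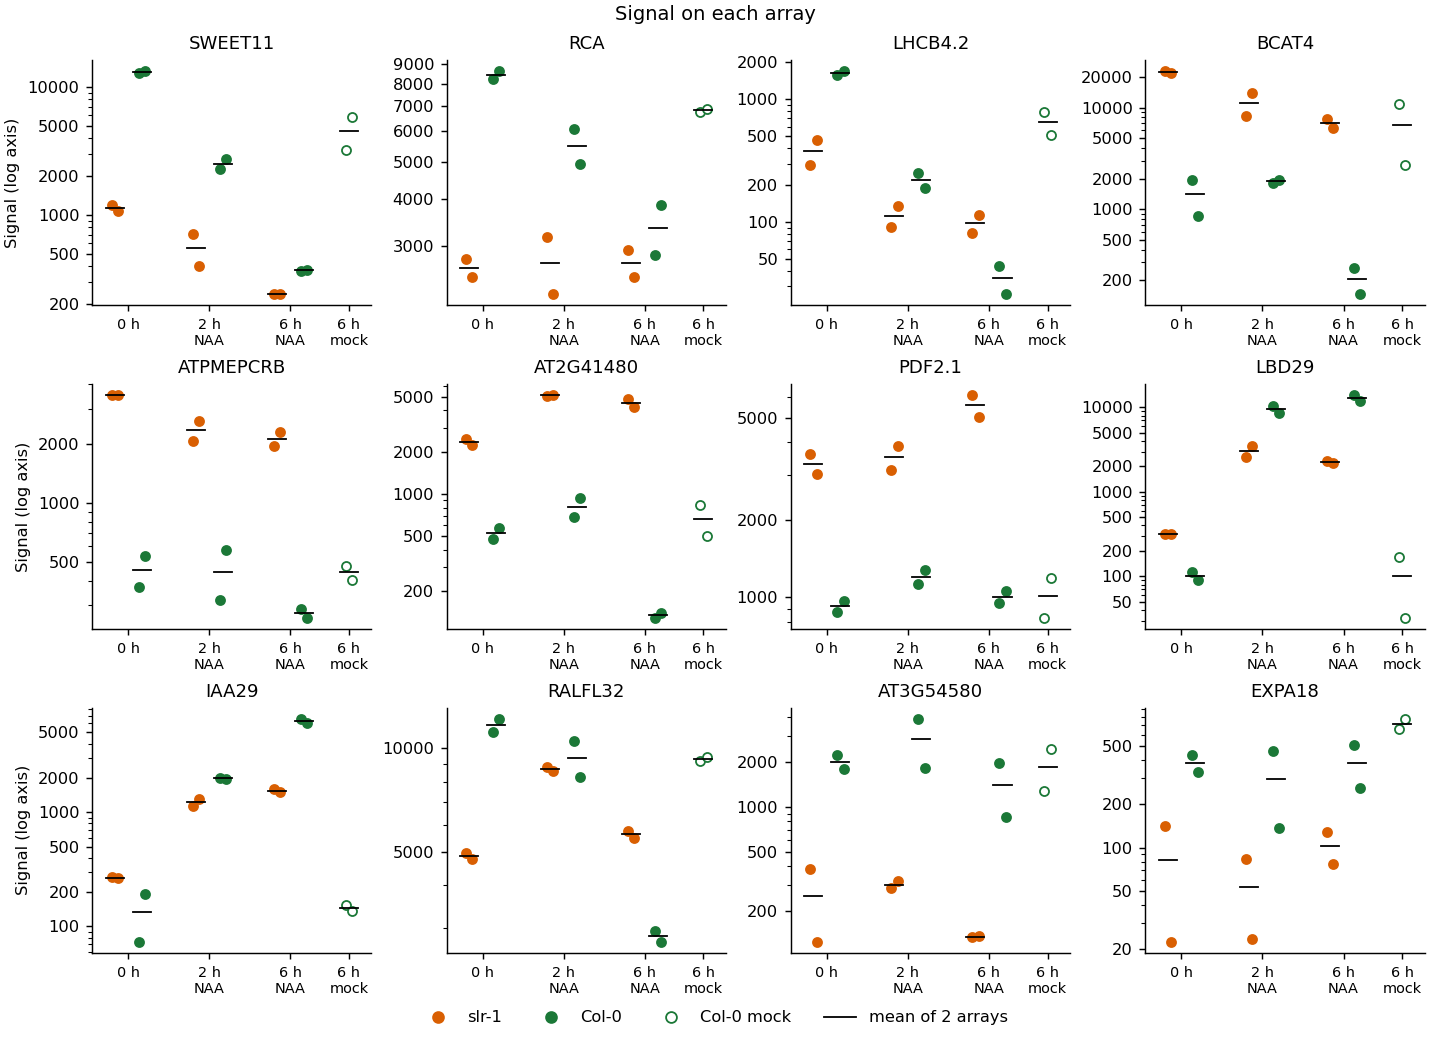
Signal on each array (vertical axis, log scale) of 12 genes at 0 h, at 2 h and 6 h of NAA and at 6 h of mock treatment, with slr-1 in orange, Col-0 in green and open green points for Col-0 mock; black bars are means of 2 arrays. SWEET11 sits between 1080.6 and 1193.3 in slr-1 at 0 h, below both Col-0 arrays, and LBD29 is higher in slr-1 at 0 h but lower at 2 h and 6 h of NAA.

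The genotypes were also compared after NAA, on other samples. The fits share 1 estimate of the spread and 1 limit on signals over all 14 arrays, so their calls are not independent of those at 0 h. At 2 h of NAA 950 of the 14882 probe sets differed between slr-1 and Col-0 (6.38%), 399 higher (2.68%) and 551 lower (3.70%). Of the 987 higher at 0 h, 205 were again higher at 2 h (20.8%) and 36 lower. Those 205 made up 51.4% of all probe sets higher at 2 h. Of the 1007 lower at 0 h, 13 were higher and 176 again lower (17.5%), and the 176 made up 31.9% of all probe sets lower at 2 h. Their median differences at 2 h were 0.28 and -0.28, against 0.00 for all tested probe sets. Most of the 1994, 746 of those higher and 818 of those lower, were not called at 2 h.

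At 6 h of NAA, when 34.6% of all probe sets differed between the genotypes (19.4% higher, 15.1% lower), the sets were mixed. Of the 987 higher at 0 h, 351 were higher (35.6%) and 256 lower (25.9%) at 6 h. Of the 1007 lower at 0 h, 252 were higher (25.0%) and 133 lower (13.2%). The 351 were 12.1% of all probe sets higher at 6 h, and the 133 were 5.9% of all lower. Among the probe sets whose call at 0 h held without any single array, 141 of 271 higher ones were higher at 6 h and 51 lower, while 47 of 272 lower ones were lower and 79 higher.

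The nuclear photosynthesis genes show the turn. At 2 h 6 of 11 were lower in slr-1 (median -0.87), and at 6 h 0 were lower and 4 higher (median 0.34). PSAN read 351.4 and 407.6 in slr-1 at 6 h, against 140.2 and 118 in Col-0 (1.43, adjusted p = 0.000128). In Col-0, NAA lowered PSAN, which read 140.2 and 118 after 6 h of NAA, against 1244.9 and 944.1 after mock (-2.90, adjusted p = 1.06e-07). SWEET11 likewise read 240.5 and 243 in slr-1 and 362.2 and 375 in Col-0 at 6 h of NAA, a difference of -0.57 (adjusted p = 0.109).

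GH9C2 turned the other way, with 5690.8 and 4779.2 in slr-1, against 25181 and 26534.1 in Col-0 at 6 h (-2.31, adjusted p = 1.07e-05). EXPA4 was also lower in slr-1 at that time (-1.86, adjusted p = 0.000172). PDF2.1, ATPMEPCRB and PRX25 (AT2G41480) were higher in slr-1 at all 3 times. PRX25 was 2.65 higher at 2 h (adjusted p = 3.27e-05) and 4.88 higher at 6 h (adjusted p = 1.39e-08).

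**Figure D5:**
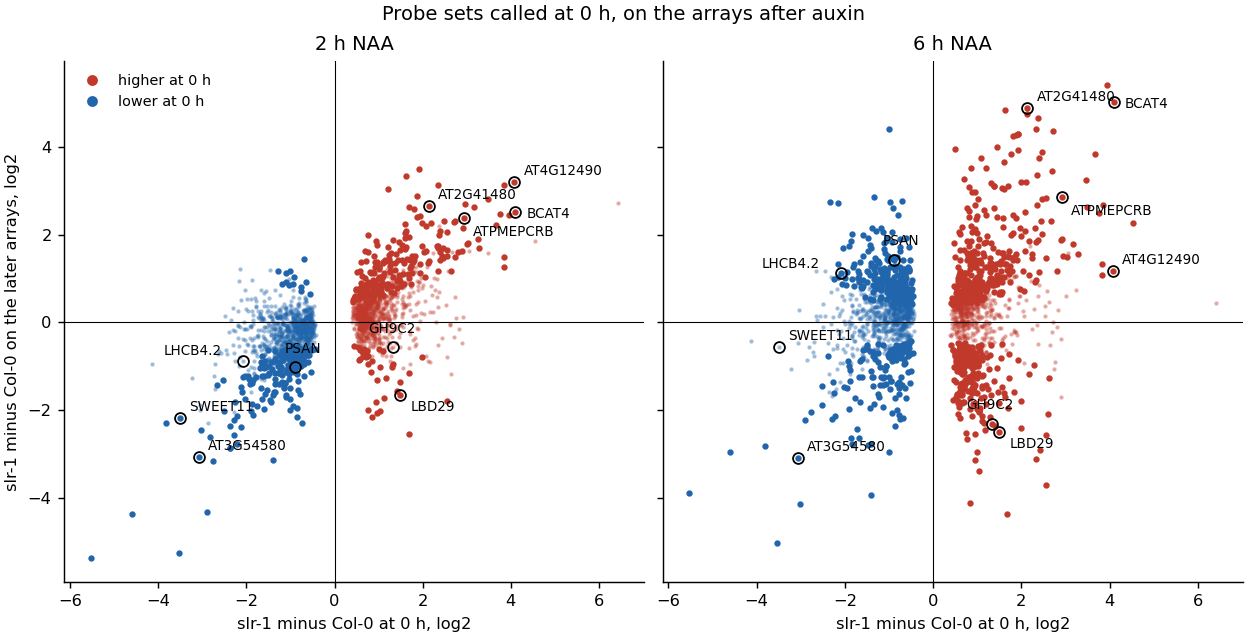
Genotype difference, slr-1 minus Col-0 in log2, at 0 h (horizontal axis) and on the separate arrays at 2 h (left) and 6 h (right) of NAA (vertical axis), for the 987 probe sets higher (red) and 1007 lower (blue) at 0 h; solid points were also called at the later time. At 2 h 205 red points were called above 0 and 176 blue points below it, and at 6 h red points were called on both sides, 351 above and 256 below.

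Auxin treatment of Col-0 itself was set beside these sets, on arrays of 6 h NAA and 6 h mock from the same fit. NAA changed 45.4% of all probe sets against mock, 20.6% upward and 24.8% downward. Of the 1007 lower in slr-1 at 0 h, 139 were higher (13.8%) and 466 lower (46.3%) with NAA in Col-0, with a median of -0.50, against -0.09 for all tested. Of the 987 higher in slr-1 at 0 h, 344 were higher (34.9%) and 282 lower (28.6%) with NAA.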

How the data were processed

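RNA of 14 samples was measured on 1-colour ATH1 arrays. The authors deposited 1 linear intensity per probe set, and the submitters' processing notes name MAS5. Its settings, the annotation and a genome build are not given in the sources used here. Trimmed mean intensities agree between arrays to within rounding, so no further scaling was applied.

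Of 22810 probe sets 64 are array controls. The platform table names 1 gene for 13513 of the others, several for 503 and none for 8730, and symbols were updated through RefSeq (assembly TAIR10.1), which was used for names and neighbours only. A gene with several probe sets was read from the one with the highest mean signal.

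log2(signal + 18.9), the added value being the pooled 10th percentile, was fitted with limma 3.58.1 in R 4.3.3 (lmFit, eBayes with trend, 14 arrays, 7 groups, 7 residual and 6.57 prior degrees of freedom). p-values were adjusted by Benjamini-Hochberg over 14882 probe sets, those with both arrays of a group above the pooled 40th percentile. Because the spread is pooled, an adjusted p at 0 h also draws on the arrays of the other groups. Tested on simulated data for the comparison at 0 h (14882 probe sets, 50 changed at each size), the fit called 2%, 34%, 66% and 94% of log2 differences of 0.5, 1, 2 and 3, with 5.77% of its calls false. The simulation gave a probe set the same spread on every array. In the data the slr-1 0 h arrays were noisier, with an array weight of 0.607 against 0.854 to 1.375 for the other groups. The simulated shares therefore do not give the false share of the calls at 0 h.

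The comparison, its genes and lists were chosen with earlier results of these data known. Named genes are the largest changes with 1 named gene, the leading members of each list, neighbours of these, and genes chosen after their values were seen. The lists added after the values were seen are RALF, SWEET, autophagy, bZIP, beta-glucosidase, chloroplast by name, cold and dehydration, iron and zinc, mitochondrial, peroxidase by name, tau glutathione transferase and trichome birefringence-like. The number of arrays limits the precision.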

Additional observations from a re-analysis of the deposited data

Results flagged for a closer look

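For 50 of 87 named genes, the genotype difference (slr-1 minus Col-0) on the arrays after NAA departed from that at 0 h by limma's joint test of both times, with adjusted p from 6.07e-06 to 0.0481. The same held for 3377 of all tested probe sets (22.7%). Each value below is the log2 difference at 6 h, or at 2 h where stated, minus that at 0 h. The arrays at 0 h enter both sides of it, so a large value at 0 h favours a departure back toward 0.

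The lateral root and auxin genes moved down relative to Col-0: PUCHI by -6.02, LBD29 by -3.98, LBD16 by -3.23, IAA29 by -3.05 and GH3.3 by -1.81. The sugar carriers moved up, SWEET11 by 2.93 and SWEET2 by 1.22. Photosynthesis genes also moved up, with LHCB4.2 at 3.20, PSAN at 2.32, PSAE-1 at 1.93, TROL at 1.83, LHCB4.3 at 1.63, PSBW at 1.43, RCA at 1.38 and PSB27 at 1.29.

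Wall genes that had been higher at 0 h moved down: TBL36 by -3.81, GH9C2 by -3.63, EXPA4 by -3.07 and, at 2 h, XTH20 by -1.35. The lignin genes CCR2 and LAC16 moved up by 2.87 and 2.71, and EXGT-A3 by 1.02. The peroxidase gene AT2G41480 moved further up by 2.75, while Prx37 moved by -2.17 at 2 h.

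Among stress and signalling genes the values were 2.84 for LEA4-5 at 2 h, 2.25 for RALFL32, 1.58 for HIS1-3, 1.57 for NDB2 and 0.57 for RALFL22 at 2 h. PSY1R gave -0.96, GSTU27 -0.98, PUB23 -1.54 and APS3 -2.27, all at 2 h. For the remaining named genes they were 2.81 for TPS-CIN, 2.33 for bZIP48, 2.30 for SP1L5, 1.47 for MMP, 0.63 for PDF2.1, -1.11 for bZIP44 and -1.35 for LEP.

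Loci known by number gave 3.82 for AT3G02480, 3.61 for AT5G28520, 2.90 for AT1G31710 and, at 2 h, 2.15 for AT3G22620 and 1.22 for AT1G05340. The values were -2.40 for AT4G12500, -2.50 for AT4G25090, -2.51 for AT1G05700, -2.76 for AT5G40590 and -2.91 for AT4G12490.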

How the results depend on the processing

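The 1994 calls at 0 h became 1165 with array weights (570 higher, 595 lower) and 1322 with only the arrays at 0 h (643 higher). Leaving out 1 array at a time gave 861 to 2089 calls, 437 to 1052 higher and 416 to 1141 lower, and the low ends came from leaving out arrays at 0 h. The 950 calls at 2 h became 1435 with array weights and 299 to 561 without 1 array of that comparison, and the 5144 at 6 h became 2936 to 3943. These smaller fits have fewer samples. Pseudocounts, filters, quantile normalization and the fit without a trend kept the count at 0 h between 1499 and 2149.

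The labels' replicate numbers were entered as a replicate block, which gave 1928 calls at 0 h. Deviations of same-numbered arrays correlated at -0.161 to 0.128 over 21 pairs of groups, above 0.1 in 3. The value was -0.064 between slr-1 0 h and Col-0 0 h, so the numbers were not taken to pair the genotypes, while all pairs of groups within a genotype lay above 0 (0.006 to 0.128).

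Of 2074 values of 87 of the named genes under other settings, 1923 kept direction and side of the threshold, 148 lost the call, 3 (PUCHI) gained one and 0 reversed. Leaving out arrays could not reverse a direction, because the slr-1 and Col-0 arrays of these genes did not overlap at 0 h. The absence of reversals is therefore no measure of stability. Of the 84 called genes 53 lost the call under no setting. Precision is limited by 2 arrays a group, and psaA, COR47 and UGT74B1 show that bright genes can lose a call to many single arrays.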
